A study of Mus musculus with 10 samples.

Results

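The olfactory receptor genes of mouse chromosome 7 were described in a list of accessible chromatin sites from fibroblasts. The members were the protein-coding genes on chromosome 7 of the mm10 build whose symbol begins with Olfr and a number, which gave 244 genes of 21938 protein-coding genes on chromosomes 1 to 19, X and Y. They carried 243 different symbols, because Olfr290 has 2 overlapping gene records, and 7 of them are named as pseudogenes (such as Olfr548-ps1) although GENCODE lists them as protein-coding. The plus strand held 121 members and the minus strand 123.

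The sites came from ATAC-seq, in which the Tn5 transposase cuts accessible chromatin and the fragments are sequenced. The 10 libraries were made from iMEF cells, immortalized mouse embryo fibroblasts whose endogenous Ash2l alleles lack exon 4 and which live on a lentiviral fusion of FKBP12 F36V, 2 HA tags and human ASH2L, a subunit of the complexes that methylate lysine 4 of histone H3. Every group shared this background, and per the study the libraries came from NG3, so that the list describes 1 clone. There were 5 groups with 2 replicates each, namely cells without dTAG treatment (the methods give ethanol as the control) and cells with dTAG treatment for 30 min, 4 h, 8 h and 24 h. The agent dTAG-13 tethers the FKBP part to Cereblon, part of an E3 ubiquitin ligase, and leads to loss of the fusion protein. The list used here pooled the sites of all groups and gave only positions, so from it no member can be compared between treated and untreated cells, no replicate error belongs to a value below, and sequencing depth is unknown. The study also lists sites that changed at each time point, which were not analysed here. All 10 fibroblast marker genes examined, among them Col1a2, Pdgfra, Vim and Twist1, had a site within 1 kb of a start, and 5 of 7 markers of olfactory sensory neurons and 3 of 5 erythroid markers had one too, where the share over all protein-coding genes was 70.8%. Expression of these genes was not examined.

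Olfactory receptors are G protein-coupled receptors that detect odorants in the nose. The genes form the largest gene family of the mouse genome, lie in clusters on many chromosomes and have a coding part that usually fits into one exon, preceded by small exons that are not translated. Each olfactory sensory neuron transcribes a single receptor gene from a single allele, while the remaining receptor genes lie in heterochromatin; in other tissues the clusters are generally silent. The receptors are divided into class I, which resemble the receptors of fish and in mice lie together on chromosome 7 on either side of the β-globin genes, and class II, which are spread over the genome.

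Of the 244 members, 10 had an accessible site no more than 1 kb from an annotated start (4.10%, 95% Wilson interval 2.24 to 7.38). Over all protein-coding genes the share was 70.8%, and over the 1779 other protein-coding genes of chromosome 7 was 65.9% (63.7 to 68.1). The Olfr genes of other chromosomes had a site in 57 of 891 cases (6.40%, 4.97 to 8.20), an interval that overlaps that of the members. These intervals cover only the sampling of genes, which are neighbors and relatives and thus not independent. Members with a model of several exons had a site in 9 of 210 cases and those with a single-exon model in 1 of 34.

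The 10 exceptions were Olfr304 and Olfr298 in the cluster from Olfr310 to Olfr292, Olfr545, Olfr550, Olfr556 and Olfr557 in the cluster from Olfr543 to Olfr649, and Olfr654, Olfr658, Olfr670 and Olfr676 in the cluster from Olfr651 to Olfr692. Olfr654 had 2 sites, so that 11 sites were involved. They were 199 to 697 bp wide, with a median of 334 bp, while the median over all sites of the list was 619 bp. Relative to the nearest start, 3 of the 11 sites covered it, 3 lay upstream and 5 downstream, and 5 overlapped the coding exon of the member.

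The sequences at the 3 outermost starts that a site covered or came within 100 bp of are shown first, because in them the annotated start and the accessible site meet. Each runs 5′ to 3′ from 150 bases before the start, is read from the GRCm38 genome of RefSeq, and has the bases inside the site in capitals.
Olfr557, chr7:102695760-102696059, plus strand: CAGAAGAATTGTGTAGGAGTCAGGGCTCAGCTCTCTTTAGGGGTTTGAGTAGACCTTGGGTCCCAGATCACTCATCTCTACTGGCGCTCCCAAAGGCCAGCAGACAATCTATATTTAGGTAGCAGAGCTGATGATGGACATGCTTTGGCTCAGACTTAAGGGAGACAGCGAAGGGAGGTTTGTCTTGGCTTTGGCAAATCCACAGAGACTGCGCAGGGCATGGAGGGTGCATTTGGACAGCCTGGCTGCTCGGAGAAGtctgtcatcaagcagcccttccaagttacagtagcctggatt
Olfr654, chr7:104586875-104587174, plus strand: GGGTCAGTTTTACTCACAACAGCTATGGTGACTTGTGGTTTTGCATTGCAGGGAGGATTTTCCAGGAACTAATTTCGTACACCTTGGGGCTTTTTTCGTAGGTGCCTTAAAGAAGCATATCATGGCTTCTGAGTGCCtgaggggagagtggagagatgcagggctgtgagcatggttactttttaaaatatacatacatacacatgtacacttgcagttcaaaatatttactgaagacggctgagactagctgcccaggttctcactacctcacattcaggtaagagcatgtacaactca
Olfr658, chr7:104647156-104647455, minus strand: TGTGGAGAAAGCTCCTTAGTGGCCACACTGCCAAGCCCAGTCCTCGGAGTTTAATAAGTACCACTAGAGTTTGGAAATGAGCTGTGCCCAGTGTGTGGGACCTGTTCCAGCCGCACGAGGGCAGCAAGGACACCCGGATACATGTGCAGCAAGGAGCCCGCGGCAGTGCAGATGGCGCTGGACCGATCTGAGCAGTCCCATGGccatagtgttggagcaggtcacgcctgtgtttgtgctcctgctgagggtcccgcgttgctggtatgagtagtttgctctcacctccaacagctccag
In the window of Olfr658, 203 of 300 bases were inside the site, in that of Olfr557 258, and in that of Olfr654 137, since the site of Olfr654 ended 14 bp before the start. Olfr658 stood apart in composition, as the only exception with a stretch of 200 bp rich in G, C and CpG within 1 kb of its outermost start.

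Over the start of Olfr658 (gene chr7:104642877-104647305, minus strand) lay a site of 329 bp with 54.7% G and C. The start of Olfr557 (chr7:102695910-102700707, plus strand) was covered by a site of 697 bp, the widest of the 11. For Olfr550 (chr7:102571442-102583011, plus strand) the site of 577 bp covered an inner start, next to the coding exon, and not the outermost start. At Olfr654 (chr7:104587025-104590718, plus strand), a site of 199 bp lay just upstream and a site of 672 bp overlapped the coding exon, 287 bp from an inner start. These 4 genes held every site within 100 bp of a member's start.

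The other exceptions had their sites farther away. Olfr298 had a site 273 bp downstream of an inner start and Olfr670 one 371 bp downstream, both overlapping the coding exon. In Olfr304 the site lay 545 bp downstream, also within the coding exon, and in Olfr556 523 bp downstream, in an intron. The site of Olfr676 lay inside the gene, 909 bp upstream of an inner start, and that of Olfr545 lay 972 bp upstream of the outermost start. For these 6 genes the site was inside the 1-kb window but not at the start.

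Just beyond the 1-kb limit were Olfr67 (1036 bp), Olfr688 (1086 bp), Olfr554 (1122 bp), Olfr543 (1218 bp) and Olfr633 (1390 bp). The window thus separated genes whose nearest sites were at similar distances, 972 bp for Olfr545 and 1036 bp for Olfr67. With a window of 3 kb the number of members with a site rose to 23, and with 500 bp it dropped to 6. Among the 10 exceptions, Olfr654 was the only one that kept its site under each of 5 changes made singly, namely a window of 500 bp, the middle of the site in place of its edge, sites of at least median width, the outermost start alone, and RefSeq starts. Olfr557, Olfr658 and Olfr298 kept it under 4 of the 5, and Olfr545 under 1.

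Start sites of these genes are uncertain, and this bears on every count above. The outermost GENCODE start lay a median of 2852 bp from the coding part and more than 1 kb from it in 201 of 244 members (82.4%), with a maximum of 77805 bp in Olfr643. In the RefSeq promoter table, which matched 207 members by symbol, 182 of the 207 starts (87.9%) lay within 100 bp of the coding part. A site at an untranslated exon that neither annotation holds would not be counted. With RefSeq transcripts, 7 of 239 genes (2.93%) had a site within 1 kb, and all 7 were among the 10 exceptions. The share over all protein-coding genes was not computed with RefSeq starts, so the 2.93% has no background here. Olfr545, Olfr556 and Olfr557 were without a site under RefSeq starts.

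Sites also fell inside members away from the start. In all, 19 members had at least 1 site between the ends of the gene and 6 had one over the coding exon. The same counts were not made for other genes, so whether these are few or many is not known. Besides Olfr298, Olfr304, Olfr550, Olfr654 and Olfr670, the coding exon of Olfr544 overlapped a site of 694 bp, although its only annotated start lay 3092 bp from the nearest site. Olfr544 is a class I receptor that is known for its expression in fat and liver. Olfr78, a class I receptor known from the carotid body and blood vessels, had a site of 262 bp inside the gene, which also holds Olfr560, 6024 bp from its nearest start. The nearby Olfr558, known from vascular smooth muscle, had no site closer than 6198 bp. Olfr544, Olfr78 and Olfr558 were singled out after their values were seen.

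**Figure D1:**
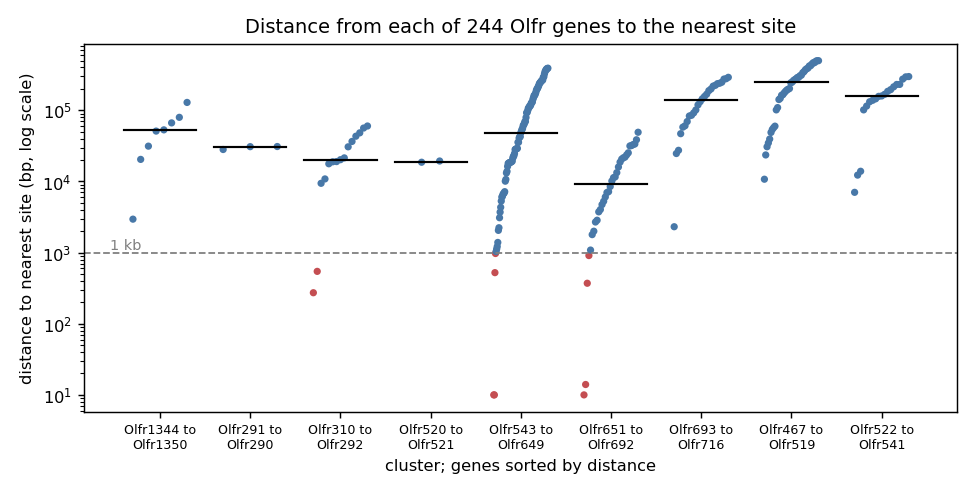
Distance in bp (log axis) from the nearest annotated start of each of the 244 members to the nearest site, by cluster, with genes sorted by distance within a cluster. Starts inside a site are drawn at the foot of the axis, red points are the 10 members within 1 kb (dashed line), and black bars are cluster medians, which range from 9326 bp in the cluster of Olfr651 to 246326 bp in that of Olfr467.

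Most members were far from any site. The distance from a start to the nearest site ranged from 0 to 498452 bp with a median of 56019 bp (95% order-statistic interval 39485 to 83210), and the middle 50% of members lay between 18427 and 191574 bp. For the other protein-coding genes of chromosome 7 the median was 0, as 1052 of the 1779 had a start inside a site. A nearest site within 10 kb was present for 43 members (17.6%) and for 77.0% of the other genes of the chromosome, and a nearest site more than 100 kb away was present for 101 members (41.4%) and for 13.7% of the other genes. The gap was smaller for the 698 other genes without a stretch of 200 bp rich in G, C and CpG near the outermost start. Their median was 13230 bp, with 47.6% within 10 kb and 31.4% more than 100 kb away. Olfr genes of other chromosomes had a median of 43310 bp (35896 to 51672), an interval that overlaps that of the members. Of these genes 24.6% had a site within 10 kb, and 33.4% had none within 100 kb. The 3 members farthest from a site were Olfr490 (498452 bp), Olfr491 (497879 bp) and Olfr492 (491101 bp), which are neighbors.

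Joining members whose starts lay 200 kb or less apart gave 9 clusters. From the proximal end of the chromosome, they ran from Olfr1344 to Olfr1350 (8 members), Olfr291 to Olfr290 (3), Olfr310 to Olfr292 (15), Olfr520 to Olfr521 (2), Olfr543 to Olfr649 (95), Olfr651 to Olfr692 (34), Olfr693 to Olfr716 (26), Olfr467 to Olfr519 (42) and Olfr522 to Olfr541 (19). No member stood alone. Together the spans from the first to the last gene covered 5.31 Mb, or 3.74% of the sequenced bases of the chromosome, and held 63 of its 7833 sites.

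The density in the clusters was 11.9 sites per Mb (95% Poisson interval 9.12 to 15.2) and outside them 56.9 per Mb (55.6 to 58.2), a ratio of 4.80. For sites of at least median width the densities were 3.95 and 30.0 per Mb, a ratio of 7.58. Sites covered 0.637% of the cluster bases and 4.28% of the bases outside. The cluster sites were also narrower, with a median of 484 bp and 7.94% of them 1 kb or wider, against 648 bp and 25.8% outside. The chromosome outside the clusters was itself uneven. Among 265 bins of 500 kb that touched no cluster, the density ranged from 0 to 164 per Mb with a median of 54.0, and 65 of the bins lay below 11.9 per Mb, so a density as low as that of the clusters was not confined to them. On other chromosomes, 40 clusters of at least 2 Olfr genes held 17.0 sites per Mb (15.4 to 18.8), with 61.6 per Mb outside them, with totals by chromosome from 5.33 per Mb on chromosome X to 48.1 on chromosome 10.

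**Figure D2:**
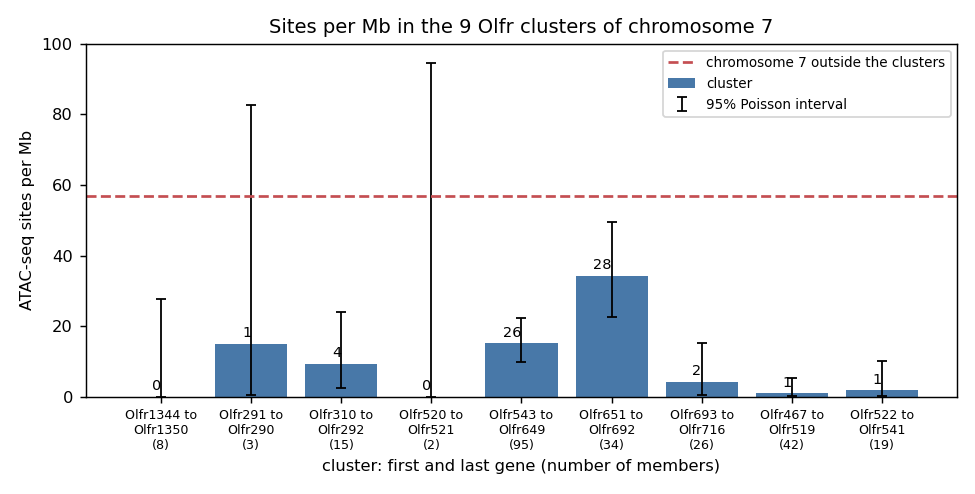
ATAC-seq sites per Mb in the 9 Olfr clusters of chromosome 7, in chromosomal order, with exact 95% Poisson intervals that cover counting only; the number of sites stands at each bar and the number of members under its name. The dashed line is the density outside the clusters (56.9 per Mb), above every bar, and the highest bar is the cluster from Olfr651 to Olfr692 (34.2 per Mb).

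The clusters differed among themselves. The cluster from Olfr651 to Olfr692 (chr7:104550133-105369355) held 28 sites, or 34.2 per Mb (22.7 to 49.4), and the adjoining cluster from Olfr543 to Olfr649 (chr7:102476579-104195985) held 26 sites, or 15.1 per Mb (9.88 to 22.2). By contrast, the largest of the later clusters, from Olfr467 to Olfr519 (chr7:107812263-108894420), held 1 site in 1082 kb, or 0.924 per Mb (0.0234 to 5.15). The cluster from Olfr522 to Olfr541 held 1 site (1.83 per Mb) and that from Olfr693 to Olfr716 held 2 (4.21 per Mb), among them one of 277 bp inside Olfr713. In the cluster from Olfr310 to Olfr292 there were 4 sites (9.32 per Mb), and between Olfr291 and Olfr290 there was 1 (14.9 per Mb, 0.376 to 82.8). No site lay in the clusters from Olfr1344 to Olfr1350 and from Olfr520 to Olfr521, for which the same Poisson intervals reach up to 27.8 and 94.5 sites per Mb. For the short clusters of Olfr291 and Olfr520 the interval thus includes the density of the chromosome outside the clusters.

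The sites were thus concentrated in 2 adjoining clusters, which held 54 of the 63. Their density was 21.3 per Mb (16.0 to 27.8), and that of the other 7 clusters together was 3.25 per Mb (1.48 to 6.16). Members with a site numbered 8 of 129 (6.20%, 3.18 to 11.8) in these 2 clusters and 2 of 115 (1.74%, 0.478 to 6.12) in the other 7, and these intervals overlap. Both of the latter lay in the cluster from Olfr310 to Olfr292, where 2 of 15 members (13.3%) had a site, a share above the 11.8% of the cluster of Olfr651 and the 4.21% of that of Olfr543. Median distances to the nearest site were 25278 bp and 132244 bp. The 2 clusters were grouped after their values were seen. Without the stretch of the β-globin genes, the cluster from Olfr543 to Olfr649 held 11.0 sites per Mb. This lies between the 9.32 and 14.9 per Mb of the clusters of Olfr310 and Olfr291. Without a stretch of Usp17l genes, described below, the cluster of Olfr651 held 28.5 per Mb. The coding sequences fell into the same 2 sets, and whether site density follows them was not tested. When the coding sequences of all members were aligned, the median identity of bases was 54.1% between members of the 2 clusters, 51.9% between members of the other 7, and 44.4% from one set to the other. The closest relative of 126 of the 129 members lay in the same 2 clusters, and that of 113 of the other 115 in the other 7. The β-globin genes, around which class I receptors are known to reside, lie within the larger of the 2 clusters, but the class of each member was not given by the files. Near the starts the medians were 38.3% and 37.5% G and C. Among the other 7 clusters taken singly, however, the medians ran from 31.0% (Olfr291) to 46.2% (Olfr520). Whether composition bears on site density was not tested.

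**Figure D3:**
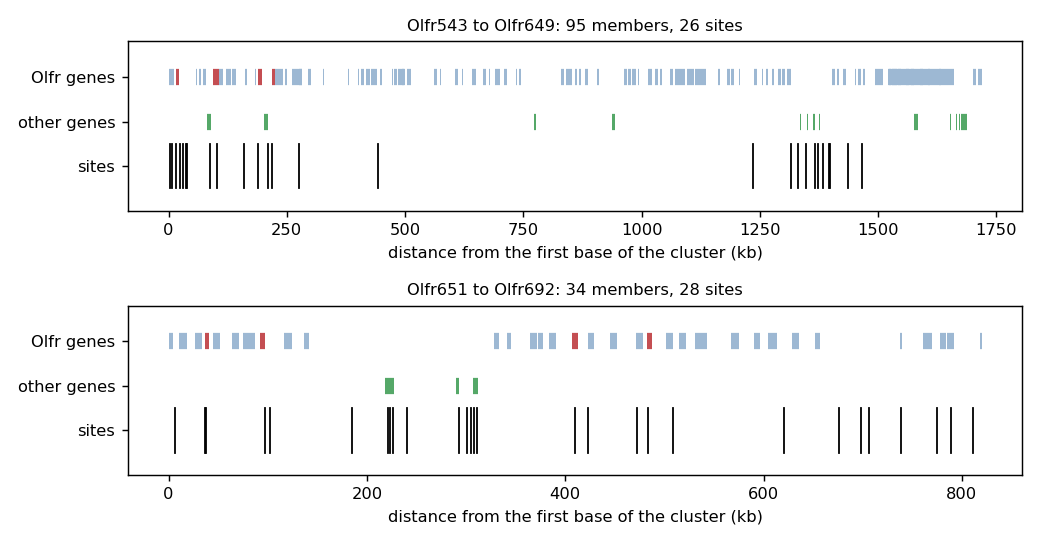
The 2 clusters with the most sites, drawn to scale by distance in kb from the first base of each cluster. Olfr genes are blue, or red where a site lay within 1 kb of a start, other protein-coding genes are green, and each vertical line is a site; the sites of the upper cluster fall into 2 groups with a stretch of 792 kb and 44 members between them that holds none.

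Within the cluster from Olfr543 to Olfr649 the sites fell into 2 groups. The first 443 kb held 15 sites (33.8 per Mb), 26 members and all 4 exceptions of the cluster. Then came 792 kb without a site, chr7:102920074-103711957, with 44 members from Olfr572 to Olfr625-ps1. The last 484 kb held 11 sites (22.7 per Mb) and 25 members, none with a site within 1 kb of a start. Of these 11 sites 8 lay among the β-globin genes. Beyond those genes, sites lay 6758 bp from Olfr65 and 1390 bp from Olfr633, and the part of the cluster distal to position 103943047 held none. A longer empty stretch was found in the cluster from Olfr467 to Olfr519, where 1003 kb from its first base on held no site and contained 37 of its 42 members. In the cluster of Olfr522 the longest stretch without a site was 517 kb with 17 of 19 members. In that of Olfr693 it was 358 kb with 20 of 26 members, Olfr2 being the last. Olfr2 encodes the I7 receptor, which is known to respond to aldehydes. These lengths stop at the cluster edge. From site to site, past the edge, they were 617 kb for Olfr522 and 592 kb for Olfr693. The 200 kb on each side of a cluster held from 0 (Olfr693) to 97.5 (Olfr520) sites per Mb.

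Some sites in the clusters lay at other genes that are found among the receptors. Of the 63 sites, 11 lay within 1 kb of a member's start, 6 within 1 kb of a start of another protein-coding gene, 3 near a start of a pseudogene only, 10 elsewhere inside a member, and 33 (52.4%) at none of these. Sites at a protein-coding start, of a member or another gene, were thus 17 of 63 (27.0%). Outside the clusters they were 20.2% of the 7770 sites of the chromosome. The 6 at other protein-coding genes were at Trim21 (971 bp wide), Trim68 (1058 bp), Hbb-bh1 (252 bp), Usp17le (258 bp), Usp17lb (834 bp) and Usp17la (185 bp). Trim21 encodes an antibody receptor of the cytosol with ubiquitin ligase activity and Trim68 a related protein, and in both a site covered the start. A total of 20 protein-coding genes other than receptors overlapped the cluster spans, and 7 of them had a promoter site, counting Gm20715, whose start and site lay outside the span.

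The β-globin genes, which are active in red cell precursors, interrupt the receptors between Olfr67 and Olfr66. This stretch of 87.6 kb held 8 sites, or 91.3 per Mb. Nearest to the receptors was a site of 284 bp 1036 bp from the start of Olfr67, and at the other end one of 631 bp 7188 bp from Olfr66. Of the 5 protein-coding globin genes, Hbb-bh1, an embryonic gene, had a site 193 bp from its start, and the adult genes Hbb-bs and Hbb-bt had their nearest sites at 1929 and 6674 bp. For Hbb-bh2 and the embryonic gene Hbb-y the distances were 2837 and 3185 bp. Upstream of Hbb-y, the side on which the locus control region is known to lie, there were 3 sites of 951, 528 and 631 bp.

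The stretch between Olfr661 and Olfr665, 187 kb with the deubiquitinase genes Usp17le, Usp17lb and Usp17la and no member, held 10 sites (53.6 per Mb). These genes are close copies of each other, and sequence that is not unique made up part of most of the sites. The share of 36-base words that occurred more than once on chromosome 7 had a median of 35.3% over these 10 sites, with a range from 0 to 56.7%, against a median of 0 over the other 53 cluster sites. In 2 of the 10 it was at least 50%. Outside the stretch the highest value was 60.6%, at the site near Olfr294. Among sites at member starts the highest values were 19.8% (Olfr676), 17.4% (Olfr298) and 15.3% (Olfr658), and the others had 0 to 5.56%. Whether reads were assigned to the right copy was not tested, here or at the members. Repeated words were counted only inside sites, so member starts and stretches without a site were not examined. Coding sequences of members were up to 99.5% identical within the cluster of Olfr543 and up to 99.0% within that of Olfr693. Whether reads were lost in such copied sequence, leaving no site, was not tested. Left without the globin and Usp17l stretches, the clusters held 45 sites in 5036 kb, or 8.94 per Mb, so that most cluster sites lay outside these stretches.

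Of the 3 widest sites, one of 1778 bp lay 1086 bp from the start of Olfr688, one of 1102 bp lay 13043 bp from Olfr545, and the third was that at Trim68. Repeats took up 19.3% of the bases of the cluster sites and 44.9% of the bases of the clusters, against 14.4% and 35.0% outside the clusters. One site of 286 bp in the cluster from Olfr310 to Olfr292, 10855 bp from Olfr294, lay wholly in soft-masked repeat. Annotated pseudogenes of the family, 49 on chromosome 7, had a site within 1 kb of a start in 1 case, the polymorphic pseudogene Olfr664 (379 bp). The share over pseudogenes outside the family is not given here, so this count has no background.

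The insulator protein CTCF and the activator AP-1 bind many accessible sites of fibroblasts, and matches to their motifs were sought in the middle 200 bp of each site on both strands. A match to a CTCF consensus was present in 4 of 63 cluster sites (6.35%, 2.50 to 15.2), in 3.47% of sites of the chromosome outside the clusters, and in 2.85% of all sites. The 4 matches are shown in 100 bases each with the match in capitals, because they are the places in the clusters where a site and this motif coincide; each is named by the nearest member.
Near Olfr290, chr7:84884675-84884774, plus strand: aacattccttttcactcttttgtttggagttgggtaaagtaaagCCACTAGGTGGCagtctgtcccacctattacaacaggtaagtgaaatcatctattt
Near Olfr554, chr7:102636866-102636965, minus strand: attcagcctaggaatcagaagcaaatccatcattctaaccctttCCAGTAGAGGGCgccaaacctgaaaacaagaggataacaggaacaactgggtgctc
In Olfr675, chr7:105022682-105022781, minus strand: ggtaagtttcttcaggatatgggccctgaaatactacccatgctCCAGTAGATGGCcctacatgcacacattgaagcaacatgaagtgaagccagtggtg
Near Olfr514, chr7:108814954-108815053, plus strand: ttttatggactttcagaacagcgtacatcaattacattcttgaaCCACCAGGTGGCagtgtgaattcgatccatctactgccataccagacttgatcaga
None of the 4 was a site within 1 kb of a member's start. That near Olfr514 was the only site of its cluster and that near Olfr290 the only site of its own.

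The AP-1 core TGANTCA, where N is any base, was found in 12 of the cluster sites (19.0%, 11.2 to 30.4), in 17.6% of sites outside the clusters, and in 18.9% of all sites. Of the 11 sites at member starts, 1 held a match, that of Olfr550, whose middle 200 bases are shown with the match in capitals.
Olfr550, chr7:102578338-102578537, plus strand: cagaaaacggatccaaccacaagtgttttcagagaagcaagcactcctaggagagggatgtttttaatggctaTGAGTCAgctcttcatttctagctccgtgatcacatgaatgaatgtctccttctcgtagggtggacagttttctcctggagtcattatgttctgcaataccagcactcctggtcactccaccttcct
A match is no evidence that the factor is bound, and its absence says only that these letters were not there.

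In olfactory neurons, receptor promoters are known to carry binding sites for homeodomain proteins such as LHX2 and for EBF proteins. The cores TAATTA and CCCNNGGG, both of which read alike on either strand, were sought in windows of 300 bases that ended shortly after a start. In the RefSeq promoter table, 28 of 207 member windows held the homeodomain core (13.5%) and 9 the EBF core (4.35%), so that 37 (17.9%, 13.3 to 23.7) held either. Over all protein-coding promoters of the table, either core was present in 20.2%, with 4.48% for the homeodomain and 16.0% for the EBF core. Over those with 50% G and C or less, Olfr genes included, the shares were 17.0%, 11.9% and 5.50%, each near that of the members. The median G and C was 44.0% in these windows and 37.0% in the members' windows, so composition was not matched. As most of these starts lie at the coding part, the search was repeated in windows of the same length at the outermost GENCODE start, a choice made after the values were seen. There, 43 of 244 members (17.6%) held the homeodomain core, 45 (18.4%) the EBF core, and 86 (35.2%) either. Olfr genes of other chromosomes had shares of 25.9%, 14.6% and 37.3% in the same windows, so a high share of either core was not particular to the members. For other protein-coding genes with 50% G and C or less, the shares were 10.1%, 6.57% and 16.3%. The windows of those genes had a higher median G and C content than the members' windows, so this comparison was not matched in composition. For all protein-coding genes the shares were 5.30%, 15.8% and 20.6%. Of the 10 members with a site, 1 held a core, an EBF core. The window of Olfr488, whose nearest site was 467464 bp away, is shown because among members with the homeodomain core (in capitals) it was the farthest from a site.
Olfr488, chr7:108258298-108258597, minus strand: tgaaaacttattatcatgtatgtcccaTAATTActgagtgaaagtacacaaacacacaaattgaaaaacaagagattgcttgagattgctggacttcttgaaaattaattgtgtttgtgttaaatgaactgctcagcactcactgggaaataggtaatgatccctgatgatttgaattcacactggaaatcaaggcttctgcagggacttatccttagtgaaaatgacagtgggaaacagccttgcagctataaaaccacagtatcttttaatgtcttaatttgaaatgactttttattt

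**Figure D4:**
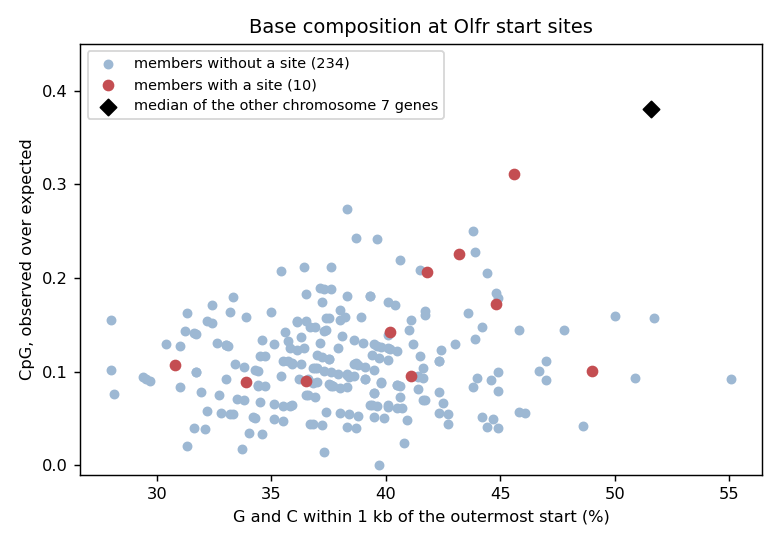
G and C content (%) and ratio of observed to expected CpG within 1 kb of the outermost start for each of the 244 members, in red for the 10 members with a site. The black diamond gives the medians of the other 1779 protein-coding genes of the chromosome (51.6% and 0.381); all members had lower ratios.

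The members' starts were poor in G, C and CpG. In the 2 kb around the outermost start, the median was 38.0% G and C (range 28.0 to 55.1) and a ratio of observed to expected CpG of 0.103 (0 to 0.311), against 51.6% and 0.381 for the other genes of the chromosome. A window of 200 bp with more than 50% G and C and a ratio above 0.6 was present at 4 members (1.64%), which were Olfr547, Olfr561, Olfr568 and Olfr658, and at 60.8% of the other genes. Of these 4, Olfr658 alone had a site. The 10 members with a site had a median of 41.5% G and C (30.8 to 49.0), within the range of the other members, whose median was 37.9%. Members without such a window had a site in 3.75% of cases (1.99 to 6.97), and the 698 other genes of chromosome 7 without such a window in 27.5% (24.3 to 30.9). The intervals of these 2 shares did not overlap. The window was sought only at the outermost start, whereas a site counted at any annotated start. The 2 groups were not matched in G and C content or number of starts.

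Because members make up 12.1% of the protein-coding genes of chromosome 7, they affect its share of genes with a promoter site, which is the lowest of the autosomes. Of the 840 genes of the chromosome without a promoter site, 234 (27.9%) were members. Without them the share was 65.9% in place of 58.5%, a gain of 7.46 percentage points. The median over the other 18 autosomes was 75.0% with all genes and 77.8% when Olfr genes were left out there as well, so that the distance of chromosome 7 from that median went from 16.5 to 11.8 points. Chromosome 7 then had the second lowest share, above chromosome 14 (62.2%) and below chromosome 6 (69.5%), and it was also second when members were left out and the other autosomes were kept whole. On chromosome 2, which has 294 Olfr genes, the share went from 67.3% to 79.4%, and on chromosome 9, with 132, from 73.1% to 82.0%.

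**Figure D5:**
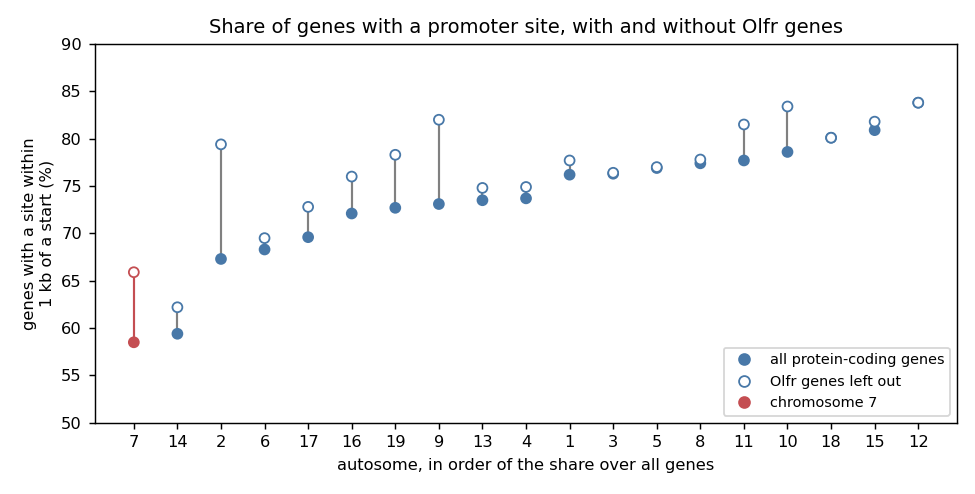
Share (%) of protein-coding genes with a site within 1 kb of a start for the 19 autosomes, in order of the share over all genes; filled circles include all genes, open circles leave out Olfr genes, and red marks chromosome 7. Chromosome 7 moves from 58.5% to 65.9% and from the lowest to the second lowest share.

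Other gene families of chromosome 7 had low shares too. None of 103 Vmn1r genes and none of 51 Vmn2r genes, which encode vomeronasal receptors for pheromones, had a promoter site, and leaving them out with the members gave 72.2%. Shares were 3 of 26 for the kallikrein genes (Klk), 3 of 15 for Ceacam, 2 of 13 for Psg, 3 of 19 for Mrgpr, 4 of 15 for Cyp2, 1 of 13 for Nlrp and 1 of 4 for Siglec, and none of 8 Sult2a and 7 Obox genes had a site. In contrast, 88 of 92 Zfp genes (95.7%) and 12 of 16 Trim genes had one. With Olfr genes left out everywhere, a CpG-rich window was present at 60.8% of the genes of chromosome 7, or 66.2% without its Vmn genes, and at 72.2% of those of the other autosomes, where Vmn genes were kept. Among genes with such a window, 90.7% (88.9 to 92.3) of those on chromosome 7 and 91.7% (91.2 to 92.2) of those on the other autosomes had a promoter site. Among genes without one, the shares were 27.5% (24.3 to 30.9) and 39.5% (38.1 to 40.9), or 34.9% (31.0 to 39.0) for chromosome 7 when its Vmn genes were left out as well.

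Genes whose products work with the receptors were examined in the same way. Of 14 genes of olfactory signaling, 9 had a promoter site (64.3%), near the 70.8% of all protein-coding genes. Those with a site included Gnal (the G protein α-subunit of olfactory neurons), Adcy3 (the adenylyl cyclase), Ano2 (a chloride channel) and Omp (olfactory marker protein), which lies on chromosome 7 itself and had a site 217 bp from its start. Without one were the channel subunit genes Cnga2 (7686 bp), Cnga4 (3801 bp) and Cngb1 (1540 bp), Stoml3 (2686 bp), and Rtp1 (3112 bp), which helps receptors to reach the cell surface. All 13 genes listed as regulators of receptor choice had a site over a start, among them Lhx2, Ldb1, Ebf1 and the histone demethylase gene Kdm1a. Several of these are used by many cell types.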

How the data were processed

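ATAC-seq libraries of 10 samples were processed by the authors, who, per the labels and their methods, trimmed reads, aligned them with BWA to mm10, filtered them with SAMtools, merged replicates, called narrow peaks with MACS2 and normalized with DESeq2. Versions, thresholds and the treatment of repeated sequence were not given in the sources used here. The extract protocol of the labels describes ChIP, and the methods describe ATAC-seq. The deposited table used here gives chromosome, start and end of each pooled site, so no test between groups, replicate or depth could be evaluated, and a site in the list may come from any group.

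Positions were read as counted from 0 with open end and are printed counted from 1. 0 sites ended beyond their chromosome in GRCm38. Starts were those of all transcripts in GENCODE (comprehensive set, GRCm38), whereas the study used a later release of the same build. A gene had a promoter site when at least 1 bp of a site lay 1 kb or less from one of its starts. Clusters joined starts 200 kb or less apart. Python 3.11.15, NumPy 2.4.6 and SciPy 1.17.1 were used, and coding sequences were aligned with MAFFT 7.526. Scripts were tested on simulated data. Named genes were all members with a site, the 5 nearest beyond 1 kb, the 3 farthest, the first and last of each cluster, the other genes with a site in the clusters, the 3 widest sites and fixed lists; other genes were named after their values were seen. The members and lists were chosen with earlier results of these data known. Alternatives varied the window, site width, starts and joining distance.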

Additional observations from a re-analysis of the deposited data

How the results depend on the processing

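The number of members with a promoter site (10) was 6 with a window of 500 bp, 23 with 3 kb and 4 with sites of at least median width, and 7 to 11 under the other 5 alternatives. The sites in the clusters (63) numbered 21 at median width or more. Their density (11.9 per Mb) was 3.95 per Mb at that width and 8.94 per Mb without the β-globin and Usp17l stretches, an alternative chosen after seeing the data, and 10.2 to 13.8 under the others. The share of chromosome 7 genes with a promoter site without members (65.9%) was 63.0% with 500 bp, 70.9% with 3 kb, 60.7% at median width or more, 61.3% with the outermost start alone and 72.2% without Vmn genes. The median distance (56019 bp) was 165472 bp to sites of at least median width. The share of members with either core (17.9%) was 53.7% in windows of 500 bases on each side, in which it was 51.8% over all protein-coding genes, and 35.2% at the outermost GENCODE start, chosen after seeing the data. The longer windows hold more bases, and fewer sites remain at median width; other causes were not tested. The number of clusters was 11 and 8 with 100 and 500 kb. No paired analysis was possible because the table used here holds pooled positions only. Without depth, a weak site cannot be told apart from one that was not called.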
